A study of Mus musculus with 18 samples.

Results

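The comparison is of IL-4 with IL-7, both of them cytokines of the common γ chain (γc) family, in OT-I CD8+ T cells. Its members are the 3 IL-4 arrays and the 3 IL-7 arrays, taken by sample title, which are 6 of the 18 arrays of the series. OT-I cells are mouse T cells with 1 transgenic receptor, specific for an ovalbumin peptide. In every group of the series the cells came from spleens of male OT-I Thy1.1 mice, were activated for 48 hours by irradiated, peptide-pulsed splenocytes of wild-type C57BL/6 mice, were recovered, and were then held in culture for 24 hours. The IL-4 group received recombinant murine IL-4 at 100 ng/ml, the IL-7 group received recombinant murine IL-7 at 100 ng/ml, and a media control group received no cytokine. Age was not stated. RNA of replicates 1 and 2 was extracted with RNeasy and that of replicate 3 with TRIzol and Direct-zol, in both groups alike, and each RNA was hybridised to an Affymetrix Mouse 430 2.0 array. The replicates are biological according to the study. All cells carry the same receptor and met the same peptide, so the groups represent 1 T cell specificity at 1 time and 1 dose.

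IL-4 binds a receptor made of the IL-4Rα chain and γc. In leukocytes generally it acts mainly through the transcription factor STAT6, in addition to other STAT proteins. For CD8+ T cells, the study cites work proposing that IL-4 acts mostly by STAT3 and activates STAT6 little. IL-7 binds IL-7Rα and γc and acts mainly through STAT5. In T cells IL-4 is known for type 2 differentiation and for the induction of EOMES in CD8+ T cells, and IL-7 is known for the survival of naive and memory cells.

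The values are log2 levels after quantile normalization of the 18 arrays, so that a difference of 1 is a doubling of the signal. Levels of different genes are not comparable on this scale. Of 18194 genes, each represented by the probe set with the highest mean, 404 genes (2.22% of those tested) were higher and 539 genes (2.96%) were lower with IL-4 than with IL-7 at a limma adjusted p under 0.05. Together these 943 genes are 5.18% of the genes tested. At an unadjusted p under 0.05, limma gave 1251 genes higher and 1474 lower, the base for the unadjusted counts of gene lists below. Without IL-4 replicate 2 there were 267 higher and 265 lower, and without IL-7 replicate 1, 2 or 3 the number lower was 333, 321 or 336. With the values as deposited, not quantile normalized, 48 genes were higher and 38 were lower. The 3 IL-4 arrays lay over all 3 IL-7 arrays for 1262 genes (6.94%) and under them for 1220 genes (6.71%). A difference greater than 1 on the log2 scale was measured for 127 of the genes that were higher and 118 of those that were lower, and a difference greater than 2 for 26 and 17 genes. The largest differences were an increase of 5.37 (Gzma) and a decrease of 2.82 (Drc1). The median over all genes was 0.01. Because whole cultures were measured, fewer cells of a type and less RNA per cell cannot be told apart.

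**Figure D1:**
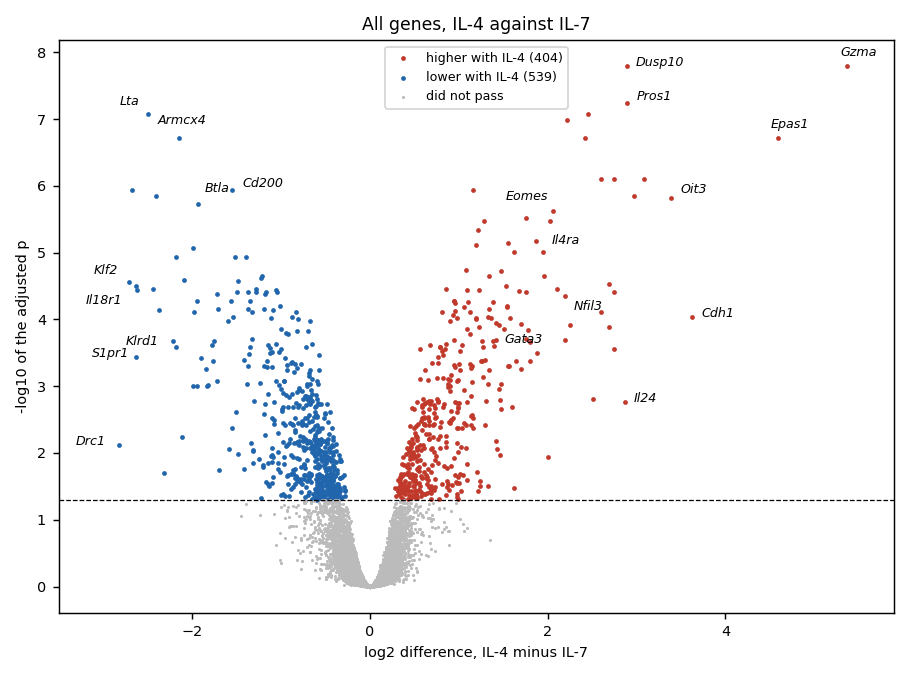
Difference between IL-4 and IL-7 for each of 18194 genes (horizontal axis, log2, IL-4 minus IL-7) against −log10 of the limma adjusted p (vertical axis). Red points are the 404 genes that were higher with IL-4, blue points the 539 that were lower, grey points did not pass, and the dashed line is an adjusted p of 0.05. The points reach 5.37 (Gzma) on the right and -2.82 (Drc1) on the left.

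The labelled cell type was checked against its markers. The background level was 6.75, which is the 95th percentile of the array means of 43 genes of other tissues. In counts of list members, a gene lay over the background if the higher of its 2 group means did. By this rule all 9 measured CD8 T cell markers lay over it, although Trat1 had a mean of 8.60 with IL-4 and 5.51 with IL-7. The mean level of the 9 markers was 11.52 to 11.88 in the IL-4 arrays and 11.25 to 11.53 in the IL-7 arrays. Cd8a was at 11.77, 12.44 and 12.39 with IL-4, against 11.26, 11.90 and 11.82 with IL-7, and the groups overlapped (difference 0.54, SE 0.10, limma adjusted p = 0.00367). Of the 9 CD8 markers 2 were higher and 1 lower, with a median difference of -0.07. The lower one was Cd2, an adhesion receptor of T cells, at 10.63, 10.71 and 11.11 with IL-4, against 11.36, 11.50 and 11.75 with IL-7, without overlap (difference -0.72, SE 0.15, limma adjusted p = 0.00847), and this call was lost without IL-4 replicate 2 (0.063), without replicate 1 of both groups (0.276) or without replicate 2 of both (0.068). Of 14 B cell markers, 3 lay over the background, and their mean level was 5.53 to 5.57 with IL-4 and 5.37 to 5.47 with IL-7. Cd79a and Pax5, which define B cells, were under the background in every one of the 6 arrays. The B cell markers called were H2-DMb2 and Ms4a1, higher with IL-4, and Bank1, lower. Ms4a1 and Bank1 were under the background in both groups. The Ms4a1 call was lost without IL-4 replicate 1 (adjusted p = 0.0577), 2 (0.0808) or 3 (0.0786) or IL-7 replicate 1 (0.115) or 3 (0.0785). The Bank1 call was lost without IL-4 replicate 1 (adjusted p = 0.0693) or 2 (0.255) or IL-7 replicate 1 (0.0725), 2 (0.226) or 3 (0.1). Of 16 myeloid markers, 2 lay over the background, at a mean level of 4.92 to 5.35 with IL-4 and 4.98 to 5.48 with IL-7, and limma called none of them, adjusted or at an unadjusted p under 0.05. Lyz2, the myeloid lysozyme, was at 6.44, 8.09 and 6.45 with IL-4, against 6.76, 8.32 and 6.37 with IL-7, so that replicate 2 was high in both groups. Of 14 dendritic cell markers, 6 lay over the background. The mean level of the 14 was 6.68 to 6.93 with IL-4 and 6.52 to 6.89 with IL-7. Limma called none of them, with 1 higher at an unadjusted p under 0.05. Of 9 NK cell markers, 2 lay over the background, and the defining receptor gene Ncr1 was under it in all 6 arrays. On the NK list, Eomes was called higher with IL-4 and Klre1, under the background in both groups, lower. None of the 14 housekeeping genes was called by limma, with 1 lower at an unadjusted p under 0.05. Whether the cells of other types have a part in the differences described here was not tested. In a check of RNA quality, the signal of actin probe sets at the 3' end exceeded that at the 5' end by 0.27, 0.23 and 0.38 in IL-4 replicates 1, 2 and 3, and by 0.27, 0.22 and 0.41 in IL-7 replicates 1, 2 and 3, so that replicate 3 was the highest in both groups.

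Each cytokine receptor gene was examined in turn. Il4ra encodes the IL-4Rα chain. It had levels of 10.96, 11.58 and 10.67 with IL-4, against 9.18, 9.59 and 8.60 with IL-7 and 8.98, 9.92 and 8.38 in media. All IL-4 arrays were above all IL-7 and media arrays, and the IL-7 and media arrays overlapped. The difference between IL-4 and IL-7 was 1.95 (SE 0.17, limma adjusted p = 9.64e-06), or 3.86-fold, with 3 of 3 probe sets in the same direction. Il7r encodes IL-7Rα, which T cells are known to reduce on exposure to IL-7 and other γc cytokines. Its levels were 10.24, 10.59 and 10.19 with IL-4, against 11.20, 11.43 and 10.88 with IL-7 and 11.71, 12.31 and 12.02 in media. The groups did not overlap and lay in the order IL-4, IL-7, media. The difference between IL-4 and IL-7 was -0.83 (SE 0.20, limma adjusted p = 0.0219), and the call was lost without IL-4 replicate 1 (adjusted p = 0.0779), IL-4 replicate 2 (0.128), IL-7 replicate 1 (0.104) or IL-7 replicate 3 (0.0932). The Il7r call was also lost without replicate 1 of both groups (0.37) or replicate 2 of both (0.202).

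Other chains of the family were measured too. Il21r, the receptor for IL-21, was higher with IL-4 at 9.56, 9.83 and 9.23, against 8.58, 8.73 and 8.35 with IL-7, without overlap (difference 0.99, SE 0.17, limma adjusted p = 0.00205). Il2rb, the β chain shared by the IL-2 and IL-15 receptors, had levels of 12.43, 12.34 and 11.39 with IL-4, against 11.78, 11.74 and 11.04 with IL-7. Here the groups overlapped, since replicate 3 was low in both, and within each replicate number IL-4 was higher (difference 0.53, SE 0.11, limma adjusted p = 0.00816). The Il2rb call was lost without IL-4 replicate 1 (0.0501) or IL-4 replicate 2 (0.0601). Il2ra, the α chain of the IL-2 receptor, was at 11.13, 11.36 and 11.28 with IL-4, against 10.76, 10.73 and 11.00 with IL-7, and the difference of 0.43 did not pass (adjusted p = 0.29). Il13ra1, the second chain of the type II IL-4 receptor, was under the background in all arrays of both groups. Of the 9 chains measured, 3 were higher and 1 was lower with IL-4, with a median difference of 0.31. The gene of γc itself, Il2rg, was not analysed here.

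**Figure D2:**
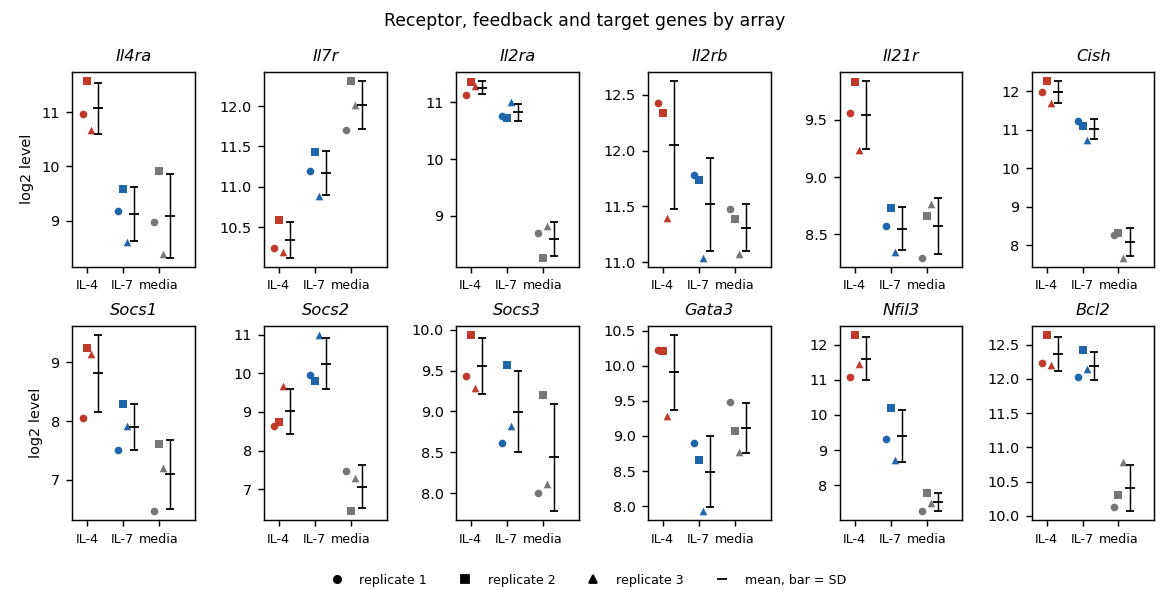
Log2 level (vertical axis, quantile normalized, a separate range for each gene) in each IL-4, IL-7 and media control array. The marker shape is the replicate number, and the bar is the mean with its SD (n = 3). Il4ra is higher and Il7r lower with IL-4 than with IL-7, while Il2ra, Cish, Socs2 and Bcl2 did not pass the test between them.

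Signalling components and feedback inhibitors came next. Of 10 JAK and STAT genes, 2 were higher and 0 lower with IL-4, and at an unadjusted p under 0.05 limma gave 5 and 0. Stat5a was at 10.10, 10.12 and 8.42 with IL-4, against 9.42, 9.37 and 7.44 with IL-7. The groups overlapped because replicate 3 was low in both, and the difference was 0.81 (SE 0.15, limma adjusted p = 0.00344). Stat4, which transduces IL-12 signals, had a difference of 0.79 (SE 0.15, limma adjusted p = 0.00404) with no overlap. Stat6, a transducer of the IL-4 signal, was at 10.86, 10.96 and 10.50 with IL-4, against 11.00, 11.09 and 10.68 with IL-7. It did not pass (difference -0.15, limma adjusted p = 0.36). Jak1, Jak3 and Stat5b, with differences of -0.19, 0.25 and 0.34, did not pass either.

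Cish and the SOCS genes encode inhibitors that are induced by STAT proteins and act back on cytokine receptors. Cish was at 11.98, 12.27 and 11.70 with IL-4, against 11.22, 11.10 and 10.72 with IL-7 and 8.28, 8.32 and 7.68 in media. The groups did not overlap, but the difference of 0.97 (SE 0.27) was just short of the threshold (limma adjusted p = 0.0565). It passed with columns centred on the median (0.048), with the 6 IL-4 and IL-7 arrays alone (0.00398), without the 3 arrays on a lower scale (0.00708), with genes over the background only (0.0281), with an intensity trend (0.0366) and without replicate 3 of both groups (0.0475). Socs2 ran the other way, at 8.63, 8.74 and 9.67 with IL-4, against 9.95, 9.79 and 11.00 with IL-7, and did not pass (difference -1.23, SE 0.38, adjusted p = 0.0855). It passed with the 6 arrays alone (0.00137), without the 3 arrays on a lower scale (0.00241), with the mean of probe sets (0.0302, at a difference of -0.67), with genes over the background only (0.0442) and without replicate 3 of both groups (0.0229). With an array or replicate number left out, Cish did not pass in 8 of 9 fits (limma adjusted p up to 0.295). Socs2 did not pass in 8 of 9 either (up to 0.512), and 4 of its 6 probe sets were lower with IL-4. Both genes were above media with either cytokine. Cish had a difference from media of 3.88 with IL-4 and 2.92 with IL-7, and Socs2 had 1.95 with IL-4 and 3.18 with IL-7, all past the threshold.

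Socs1 was higher with IL-4, at 8.06, 9.24 and 9.15, against 7.51, 8.30 and 7.91 with IL-7. The groups overlapped through replicate 1, which was low in both, and the difference was 0.91 (SE 0.16, limma adjusted p = 0.00239). Socs3 had a difference of 0.55 (adjusted p = 0.0281), lost without IL-4 replicate 1 (0.159), IL-7 replicate 1 (0.0901), IL-7 replicate 2 (0.11) or IL-7 replicate 3 (0.0912). Of 21 feedback inhibitors 3 were higher and 1 was lower with IL-4, with a median of 0.05. Of 23 STAT5 target genes 5 were higher and 2 lower, with a median of 0.15. The highest of these by difference was Il4ra (1.95), followed by Lif (1.25), which encodes leukemia inhibitory factor and did not overlap between the groups. The lower members were Lta and Myc.

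STAT proteins bind palindromes whose 2 arms are separated by a short spacer. TTC and GAA with a spacer of any 4 bases is the form that STAT6 favours, and with a spacer of any 3 bases (TTCNNNGAA) the form common to other STATs. Both were searched in windows that run from 250 bases before to 50 bases after each RefSeq start (GRCm38.p6, 300 bases). Both forms read the same on either strand, and a match of one cannot be a match of the other at the same position. The 4-base spacer was present in 23 of 432 windows (5.32%) of genes higher with IL-4, 28 of 591 windows (4.74%) of genes lower, and 1063 of 18110 windows (5.87%) of all genes tested. The 3-base spacer was present in 31 windows (7.18%) of genes higher, 50 windows (8.46%) of genes lower and 1305 windows (7.21%) of all genes tested. Over all 32851 RefSeq windows the shares were 6.95% for the 4-base spacer and 8.3% for the 3-base spacer. Windows were found for 322 of the 404 genes that were higher, 434 of the 539 that were lower and 14453 of all 18194. The windows of 4 genes are shown because these differ in direction or in spacer, with the matches in capitals. Cish has 2 matches with the 3-base spacer near its start, and Pros1, higher with IL-4, has 1 match of each form. Lta, lower with IL-4, has 1 match with the 4-base and 2 with the 3-base spacer, and Il18r1, also lower, has 1 match with the 4-base spacer in the window printed, 1 of several for this gene. The windows lie at chr9:107296409-107296708 on the plus strand (Cish), chr16:62854057-62854356 on the plus strand (Pros1), chr17:35205302-35205601 on the minus strand (Lta) and chr1:40465302-40465601 on the plus strand (Il18r1), and each is written along its gene.
Cish: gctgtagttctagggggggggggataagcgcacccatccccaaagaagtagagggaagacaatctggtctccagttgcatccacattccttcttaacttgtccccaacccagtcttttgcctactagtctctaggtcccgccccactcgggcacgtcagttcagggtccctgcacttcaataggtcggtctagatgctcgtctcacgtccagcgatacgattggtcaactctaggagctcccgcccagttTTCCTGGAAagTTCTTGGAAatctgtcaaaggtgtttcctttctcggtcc
Pros1: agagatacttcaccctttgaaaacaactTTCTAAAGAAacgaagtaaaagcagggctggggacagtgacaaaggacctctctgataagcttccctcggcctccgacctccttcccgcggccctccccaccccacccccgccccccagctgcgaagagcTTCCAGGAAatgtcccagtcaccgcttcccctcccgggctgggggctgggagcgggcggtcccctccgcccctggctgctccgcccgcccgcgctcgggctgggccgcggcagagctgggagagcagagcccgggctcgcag
Lta: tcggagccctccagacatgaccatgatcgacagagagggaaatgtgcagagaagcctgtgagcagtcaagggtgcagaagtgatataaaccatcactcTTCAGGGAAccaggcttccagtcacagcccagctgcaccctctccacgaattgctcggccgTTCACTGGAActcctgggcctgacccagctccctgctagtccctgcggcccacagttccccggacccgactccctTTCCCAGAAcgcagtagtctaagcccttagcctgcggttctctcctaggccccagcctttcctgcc
Il18r1: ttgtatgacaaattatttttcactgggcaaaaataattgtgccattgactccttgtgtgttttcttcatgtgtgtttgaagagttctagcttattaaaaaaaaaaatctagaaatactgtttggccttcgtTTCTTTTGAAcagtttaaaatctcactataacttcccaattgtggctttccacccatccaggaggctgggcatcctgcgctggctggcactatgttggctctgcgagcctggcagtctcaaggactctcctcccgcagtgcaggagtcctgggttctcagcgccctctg
A match describes these letters and is not evidence of binding.

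The genes with the largest increase included a protease, a hypoxia factor, adhesion molecules and secreted proteins. Gzma encodes granzyme A, a serine protease of cytotoxic granules. It was at 13.67, 13.95 and 13.51 with IL-4, against 8.58, 8.45 and 7.98 with IL-7 and 8.86, 9.51 and 8.13 in media. The IL-4 arrays were far above those of IL-7 and media, by 5.37 over IL-7 (SE 0.24, limma adjusted p = 1.63e-08), or 41.4-fold.

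Epas1 encodes HIF-2α, an oxygen-regulated transcription factor. It was at 12.35, 12.25 and 11.24 with IL-4, against 7.83, 7.34 and 6.89 with IL-7, with no overlap and with replicate 3 the lowest in both groups. The difference was 4.59 (SE 0.28, limma adjusted p = 1.95e-07), or 24.1-fold. It was the only one of 22 hypoxia response genes that passed, while the list as a whole had a median of -0.01, and at an unadjusted p under 0.05 there were 1 higher and 1 lower.

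Cdh1, which encodes E-cadherin, was at 7.04, 7.92 and 5.59 with IL-4, against 2.98, 3.40 and 3.28 with IL-7. The IL-7 arrays were all under the background level, as was IL-4 replicate 3, so the size of the difference, 3.63 (SE 0.42, limma adjusted p = 9.35e-05), is not exact. Efna5, an ephrin ligand of Eph receptors, was at 9.49, 9.02 and 8.76 with IL-4, against 5.97, 5.96 and 6.46 with IL-7, with no overlap (difference 2.97, SE 0.22). Trat1, an adaptor associated with the T cell receptor, was at 8.10, 9.25 and 8.46 with IL-4, against 5.41, 5.59 and 5.54 with IL-7 (difference 3.09, SE 0.21). For Efna5 and Trat1 the IL-4 arrays lay over the background and the IL-7 arrays under it.

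Pros1 encodes protein S, an anticoagulant and a ligand of TAM receptors. It was at 10.43, 10.43 and 10.08 with IL-4, against 7.70, 7.61 and 6.95 with IL-7 (difference 2.90, SE 0.15, limma adjusted p = 5.8e-08), or 7.44-fold. The media arrays, at 7.43, 7.77 and 6.93, overlapped those of IL-7. Dusp10, a phosphatase that inactivates the kinases JNK and p38, was at 11.38, 11.57 and 11.13 with IL-4, against 8.65, 8.58 and 8.18 with IL-7 and 8.85, 9.31 and 8.67 in media. Here IL-4 lay above media by 2.42 and IL-7 below it by -0.47, and the difference between the cytokines was 2.89 (SE 0.13, limma adjusted p = 1.63e-08). Slc2a6, of the glucose transporter family, showed the same arrangement, at 8.87, 8.65 and 8.97 with IL-4, against 6.20, 6.22 and 5.82 with IL-7 and 7.12, 7.01 and 7.59 in media.

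Il24, a cytokine of the IL-10 family that IL-4 is known to induce in T cells, was at 6.81, 8.21 and 6.74 with IL-4, against 4.74, 4.50 and 3.92 with IL-7 (difference 2.87, SE 0.47, limma adjusted p = 0.00175). Replicate 2 was the high array, and IL-4 replicate 3 and all IL-7 arrays were under the background. P2rx7, a channel opened by extracellular ATP, was at 9.05, 8.55 and 6.22 with IL-4, against 6.17, 4.80 and 4.76 with IL-7. IL-4 replicate 3 was barely above IL-7 replicate 1, yet within each replicate number IL-4 was higher (difference 2.70, SE 0.32, limma adjusted p = 0.00013). The other genes among the 15 largest increases were Oit3 (3.39), Col6a2 (2.75), Tafa3 (2.74), Metrnl (2.69) and Cysltr2 (2.60), which included a collagen chain, secreted proteins and a leukotriene receptor. None of these 5 genes, chosen by the size of the difference, had overlapping groups. All 15 genes passed without each single array left out in turn, and all but Il24 without each replicate number, the Il24 call being lost without replicate 2 of both groups (difference 2.45, adjusted p = 0.105).

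**Figure D3:**
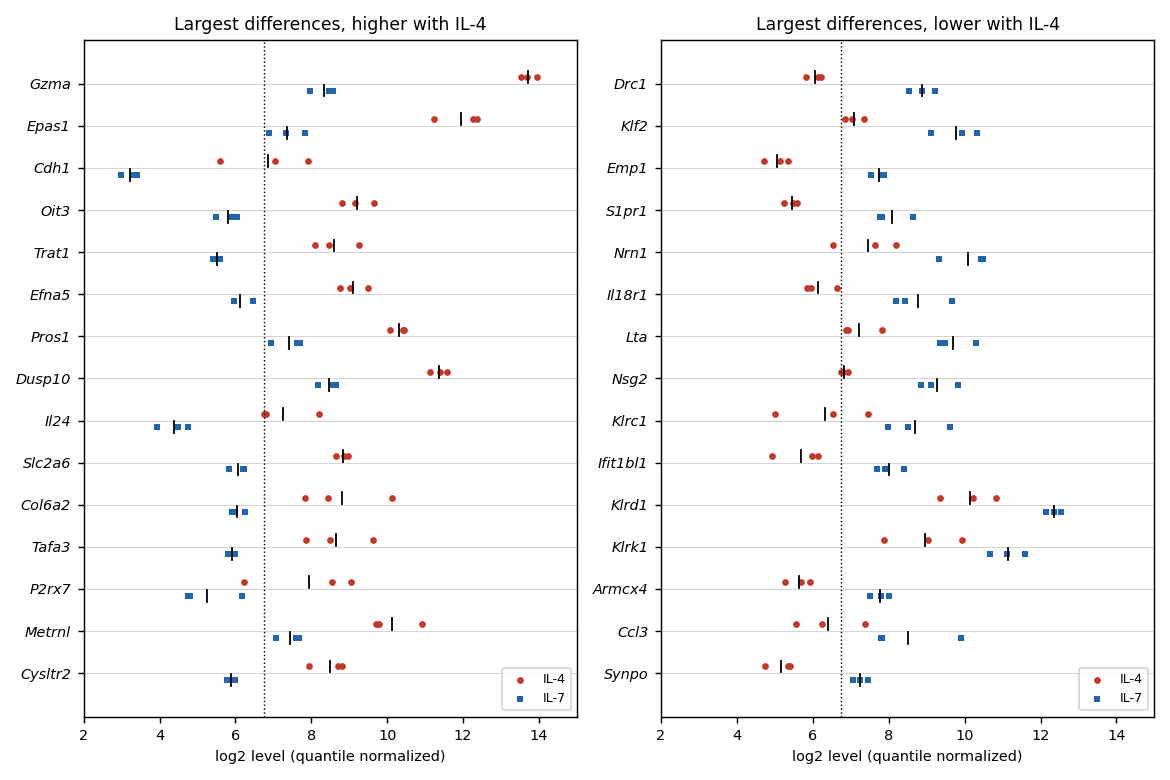
Log2 level (horizontal axis, quantile normalized) of the 15 genes with the largest increase (left) and the 15 with the largest decrease (right) in the IL-4 arrays (circles, upper row of each gene) and the IL-7 arrays (squares, lower row). Vertical ticks are the means of 3 arrays, and the dotted line is the background level of 6.75. In none of the 30 genes do the groups overlap, which largely follows from choosing them by the size of the difference. Over all genes, 6.94% had all IL-4 arrays over the IL-7 arrays and 6.71% had them under. P2rx7 has the closest approach among the increases.

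The genes with the largest decrease included regulators of quiescence and egress, receptors of the NK type and inflammatory mediators. Klf2 encodes a transcription factor that maintains quiescence and drives S1pr1. It was at 6.85, 7.03 and 7.35 with IL-4, against 9.10, 10.33 and 9.92 with IL-7 and 9.94, 11.15 and 10.91 in media, with no overlap between IL-4 and IL-7 (difference -2.71, SE 0.27, limma adjusted p = 2.71e-05). S1pr1, the receptor by which T cells leave lymphoid tissue, was at 5.48, 5.25 and 5.60 with IL-4, against 7.77, 8.64 and 7.82 with IL-7 and 9.45, 10.48 and 9.48 in media. The 3 groups were separate and S1pr1 was under the background with IL-4, so that the difference of -2.63 (SE 0.36, limma adjusted p = 0.000361) is not exact. Ccr7, which guides T cells into lymph nodes, was at 10.01, 10.52 and 10.30 with IL-4, against 11.18, 11.80 and 11.35 with IL-7 (difference -1.17, SE 0.12, limma adjusted p = 3.87e-05). For all 3 genes the IL-7 mean lay between the IL-4 mean and the media mean.

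Of 26 genes of naive, memory and quiescent T cells, 12 were lower and 1 was higher with IL-4, with a median of -0.50. The list holds Klf2, S1pr1, Ccr7 and Il7r, and also Id3, a regulator of memory precursors, which was at 8.54, 8.09 and 8.97 with IL-4, against 9.88, 10.51 and 10.56 with IL-7 (difference -1.78, SE 0.23, limma adjusted p = 0.000239). Nsg2 is listed with naive T cells although it is best known as a neuronal vesicle protein. It was at 6.79, 6.75 and 6.93 with IL-4, against 9.11, 9.83 and 8.86 with IL-7. The 3 IL-4 arrays were close to the background and no IL-7 array was near them (difference -2.44, SE 0.25). Itga4, the α4 integrin chain, was lower in 5 of 5 probe sets, at 7.80, 7.62 and 7.33 with IL-4, against 9.09, 9.21 and 9.59 with IL-7 (difference -1.71, SE 0.19, limma adjusted p = 7.09e-05). Of 22 genes of integrins, selectins and egress receptors, 5 were lower and 1 was higher, with a median of -0.13. The higher one was Itgb3, the β3 integrin chain (difference 1.32, SE 0.20, limma adjusted p = 0.000941).

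Among the genes of NK-type receptors, those that passed were lower with IL-4. Klrd1 encodes CD94, Klrc1 its partner NKG2A, which recognises Qa-1, and Klrk1 the activating receptor NKG2D. Klrd1 was at 10.22, 9.35 and 10.82 with IL-4, against 12.15, 12.36 and 12.53 with IL-7 (difference -2.22, SE 0.28, limma adjusted p = 0.000211). Klrc1 was at 6.53, 4.99 and 7.45 with IL-4, against 8.52, 7.98 and 9.61 with IL-7 (difference -2.37, SE 0.27), and Klrk1 was at 9.04, 7.88 and 9.94, against 11.13, 10.67 and 11.60 (difference -2.18, SE 0.28). In each of these genes the groups were separate, IL-4 replicate 2 was the lowest and replicate 3 the highest of the IL-4 arrays. Of 18 killer lectin-like and NK receptors 5 were lower and 0 higher, with a median of -0.11, and at an unadjusted p under 0.05 limma gave 5 lower and 1 higher. Only 5 of the 18 lay over the background. Klrc genes are similar in sequence, and the array may not separate them.

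Type 1 genes moved in both directions. Il18r1, a chain of the IL-18 receptor, was at 5.96, 5.84 and 6.63 with IL-4, against 8.20, 8.43 and 9.67 with IL-7 and 8.38, 8.26 and 10.07 in media. All IL-4 arrays were under the background, and IL-7 and media overlapped (difference between IL-4 and IL-7 -2.62, SE 0.27, limma adjusted p = 3.62e-05). Its partner chain Il18rap had a difference of -1.15 (SE 0.16, limma adjusted p = 0.000425). Ifngr1, the interferon-γ receptor, had one of -1.10 (SE 0.16) and was at 10.33, 9.98 and 10.08 with IL-4, against 11.42, 11.42 and 10.83 with IL-7. Both genes had separate groups.

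Xcl1, a chemokine that attracts cross-presenting dendritic cells, was at 8.03, 6.85 and 8.13 with IL-4, against 9.52, 8.97 and 10.01 with IL-7 (difference -1.83, SE 0.28, limma adjusted p = 0.000985). Ccl3, an inflammatory chemokine, was at 6.24, 5.56 and 7.37 with IL-4, against 7.82, 7.80 and 9.89 with IL-7 (difference -2.11, SE 0.41, limma adjusted p = 0.00585). Replicate 3 was the highest array of both groups for both chemokines, and the groups did not overlap. Ccl5, also a chemokine, had a difference of -1.15 (adjusted p = 0.0291), lost without IL-4 replicate 1 (0.0813), IL-4 replicate 2 (0.182), IL-7 replicate 1 (0.114), IL-7 replicate 2 (0.0834) or IL-7 replicate 3 (0.102). Of 15 chemokines 3 were lower and 0 higher, and at an unadjusted p under 0.05 there were 4 lower and 3 higher. Cxcr3, the receptor for interferon-induced chemokines, was at 10.38, 9.72 and 10.36 with IL-4, against 11.13, 11.35 and 11.28 with IL-7 (difference -1.10, adjusted p = 0.0107). Its call was lost without IL-4 replicate 2 (0.075), IL-7 replicate 2 (0.0533) or IL-7 replicate 3 (0.0535). Of 16 chemokine receptors 3 were higher and 3 lower with IL-4.

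Of 19 type 1 effector genes, 7 were lower and 4 higher, with a median of 0.06. Among the higher ones was Eomes, a T-box factor of effector and memory CD8+ T cells, at 9.99, 9.72 and 10.07 with IL-4, against 7.99, 7.32 and 8.29 with IL-7 and 8.11, 7.26 and 8.34 in media. The IL-7 and media arrays covered the same range, and IL-4 was above both (difference from IL-7 2.06, SE 0.16, limma adjusted p = 2.36e-06). Of 24 genes of cytotoxic granules 5 were higher and 0 lower, and at an unadjusted p under 0.05 limma gave 8 higher and 0 lower. Beside Gzma these included Cst7, cystatin F, at 12.01, 12.01 and 11.80 with IL-4, against 11.04, 10.85 and 10.64 with IL-7, with no overlap (difference 1.09, SE 0.11, limma adjusted p = 3.62e-05). Gzmc, another granzyme, was at 8.34, 7.98 and 7.84 with IL-4, against 7.14, 6.51 and 7.08 with IL-7 (difference 1.14, SE 0.20, limma adjusted p = 0.00276). Gzmc belongs to a cluster of similar granzyme genes, which the array may not separate fully.

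Type 2 genes that passed were mostly higher. Of 28 type 2 and STAT6 target genes, 10 were higher and 1 was lower with IL-4, with a median of 0.39, and 12 of the 28 lay over the background. Gata3, the factor that directs type 2 differentiation, was at 10.23, 10.21 and 9.29 with IL-4, against 8.90, 8.65 and 7.93 with IL-7 and 9.49, 9.08 and 8.77 in media. IL-4 and IL-7 did not overlap, and replicate 3 was the lowest in all 3 groups (difference between IL-4 and IL-7 1.42, SE 0.18, limma adjusted p = 0.000201). Nfil3, a basic leucine zipper factor, was at 11.08, 12.28 and 11.44 with IL-4, against 9.32, 10.20 and 8.71 with IL-7 and 7.27, 7.79 and 7.49 in media. The 3 groups were separate, with IL-7 between the others (difference between IL-4 and IL-7 2.19, SE 0.23, limma adjusted p = 4.41e-05). Irf4, which was the lower member, was at 9.16, 9.01 and 10.03 with IL-4, against 9.87, 9.91 and 10.44 with IL-7. The groups overlapped, and the difference of -0.68 (SE 0.13, limma adjusted p = 0.00675) lost its call without IL-4 replicate 2 (0.0552), without replicate 1 of both groups (0.1005) or without replicate 2 of both (0.226).

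Of 36 transcription factors of effector and memory cells 8 were higher and 8 lower, with a median of -0.085. Batf, which pairs with IRF4 and JUN proteins, was higher at 11.12, 11.71 and 11.21 with IL-4, against 9.45, 9.32 and 10.01 with IL-7 (difference 1.75, SE 0.18, limma adjusted p = 3.87e-05). Ikzf2, which encodes Helios of the Ikaros family, was lower at 6.92, 6.79 and 6.88 with IL-4, against 8.59, 9.09 and 8.74 with IL-7 and 10.59, 11.23 and 10.64 in media. The IL-4 arrays were just above the background and the 3 groups were separate (difference between IL-4 and IL-7 -1.94, SE 0.30, limma adjusted p = 0.000985). Myc, a driver of growth, was lower with IL-4 at 10.17, 10.33 and 9.91, against 10.95, 11.12 and 10.40 with IL-7 (difference -0.69, SE 0.12, limma adjusted p = 0.00342), without overlap. It was the 1 gene called of the 12 in the MYC and MXD network.

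**Figure D4:**
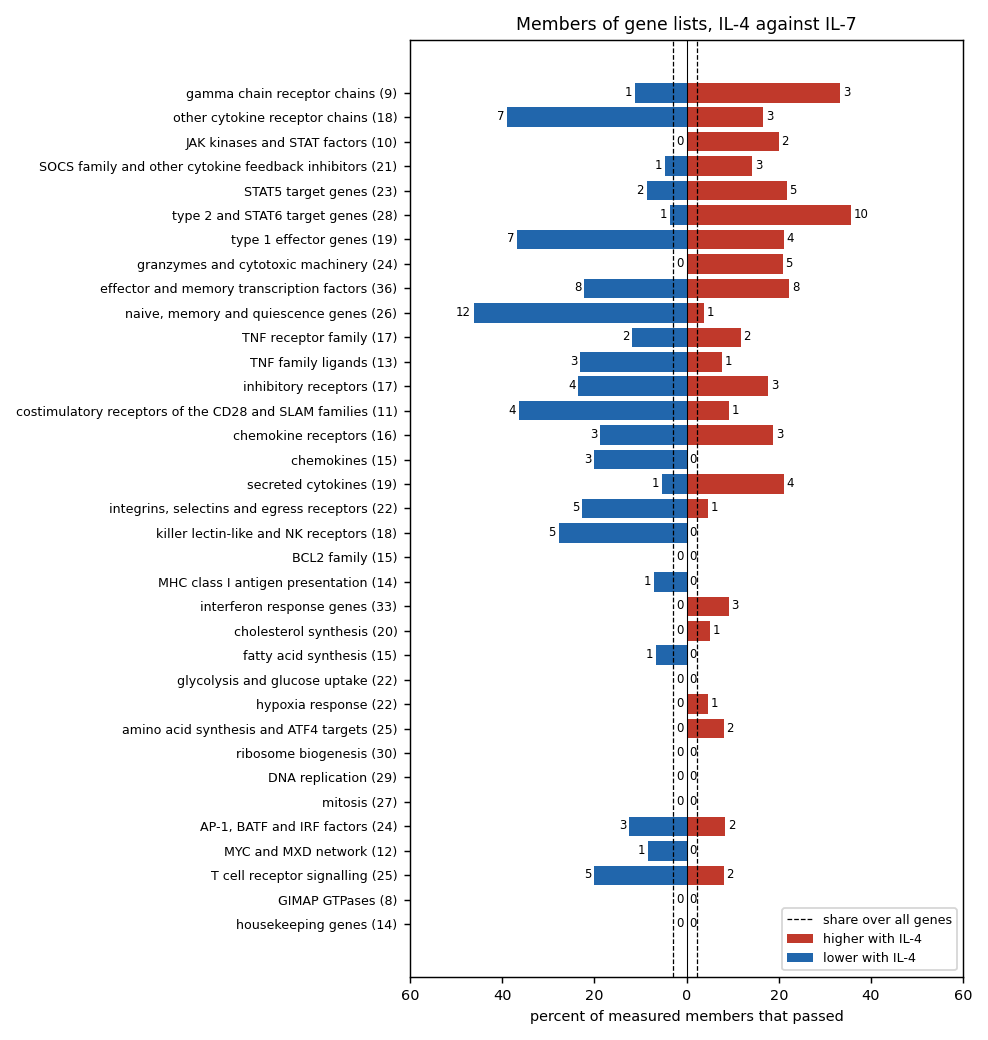
Percent of the measured members of each gene list that passed the test (horizontal axis), higher with IL-4 to the right in red and lower to the left in blue, with the number of genes at each bar and the number measured in brackets. Dashed lines are the shares over all genes, 2.22% higher and 2.96% lower. The longest bar on the left is that of naive, memory and quiescence genes (12 of 26), and the longest on the right that of type 2 and STAT6 target genes (10 of 28).

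How the γc cytokines act on costimulatory receptors of the TNF family was a question of the study. Tnfrsf4, which encodes OX40, was at 11.97, 12.39 and 12.18 with IL-4, against 11.50, 11.31 and 11.12 with IL-7 and 10.22, 9.66 and 10.16 in media. The 3 groups were separate, with a difference between IL-4 and IL-7 of 0.87 (SE 0.21, limma adjusted p = 0.0265). Its call was lost without IL-4 replicate 2 (0.175), IL-4 replicate 3 (0.0656), IL-7 replicate 1 (0.0645), IL-7 replicate 2 (0.0582) or IL-7 replicate 3 (0.152). Tnfrsf18, which encodes GITR, had a difference of 0.57 (adjusted p = 0.0129), lost without IL-4 replicate 2 (0.0995) or IL-7 replicate 3 (0.0889). Of 17 receptors of the family 2 were higher and 2 lower, with a median of 0.01.

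Among 13 ligands, 3 were lower and 1 was higher. Lta, lymphotoxin-α, was at 6.93, 6.88 and 7.81 with IL-4, against 9.48, 9.34 and 10.29 with IL-7 and 7.71, 7.87 and 8.52 in media. Within each replicate number the order was IL-4, media, IL-7, and the difference between IL-4 and IL-7 was -2.49 (SE 0.13, limma adjusted p = 8.37e-08). Ltb, its partner lymphotoxin-β, was at 12.26, 12.34 and 11.94 with IL-4, against 13.16, 13.21 and 12.82 with IL-7, also without overlap (difference -0.89, SE 0.12, limma adjusted p = 0.000457). Tnfsf13b, which encodes the B cell survival factor BAFF, was higher at 7.86, 8.33 and 7.20 with IL-4, against 6.04, 6.38 and 5.08 with IL-7 (difference 1.96, SE 0.19, limma adjusted p = 2.2e-05). The IL-7 arrays of Tnfsf13b were under the background.

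Inhibitory receptors moved in both directions, with 3 of 17 higher, 4 lower and a median of 0.01. Btla, a receptor for HVEM, was at 7.95, 7.76 and 9.25 with IL-4, against 9.91, 9.75 and 11.11 with IL-7 (difference -1.94, SE 0.15, limma adjusted p = 1.9e-06). Cd200, which signals to myeloid cells, was at 6.60, 6.76 and 7.25 with IL-4, against 8.13, 8.43 and 8.71 with IL-7 (difference -1.55, SE 0.11, limma adjusted p = 1.17e-06). Replicate 3 was the highest array in both groups for both genes and the groups stayed apart. The pair of ectoenzymes that turn ATP into adenosine differed in direction. Entpd1, which encodes CD39, was at 8.14, 8.86 and 7.18 with IL-4, against 6.72, 6.83 and 5.84 with IL-7 (difference 1.60, SE 0.27, limma adjusted p = 0.00208). Nt5e, which encodes CD73, was at 6.63, 5.21 and 6.13 with IL-4, against 8.21, 7.49 and 7.41 with IL-7 (difference -1.72, SE 0.26, limma adjusted p = 0.000833), and 2 of its 3 probe sets went this way.

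Of 11 receptors of the CD28 and SLAM families 4 were lower and 1 was higher. Slamf1 was at 8.19, 8.16 and 8.66 with IL-4, against 9.04, 9.45 and 9.35 with IL-7, without overlap (difference -0.94, SE 0.12, limma adjusted p = 0.000161). Crtam, a receptor of activated CD8+ T cells, had a difference of -0.76 (SE 0.15, adjusted p = 0.0067). Of 25 genes of T cell receptor signalling 5 were lower and 2 higher. Txk, a kinase of the Tec family, was at 7.80, 7.66 and 7.36 with IL-4, against 8.84, 9.32 and 8.72 with IL-7 (difference -1.36, SE 0.18), and Dgka, a diacylglycerol kinase that dampens the signal, had a difference of -0.95 (SE 0.15). Rasgrp1, the Ras activator that diacylglycerol recruits, was higher at 11.69, 12.15 and 11.26 with IL-4, against 10.62, 11.21 and 10.46 with IL-7 (difference 0.93, SE 0.11, limma adjusted p = 8.69e-05), in 4 of 4 probe sets. Neither of the genes Txk and Rasgrp1 had overlapping groups.

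Among 33 interferon response genes 3 were higher and 0 lower, and at an unadjusted p under 0.05 limma gave 6 higher and 5 lower. Oas1a, a sensor of double-stranded RNA, was at 8.17, 7.99 and 8.35 with IL-4, against 6.71, 6.82 and 6.97 with IL-7 and 7.23, 7.43 and 7.42 in media, so that the groups were separate and media lay between them. Its difference between the cytokines was 1.33 (SE 0.13, limma adjusted p = 2.23e-05). Mx1 (1.28) and Isg20 (1.00) also passed. One gene of the IFIT family went the other way outside this list, Ifit1bl1, at 5.98, 4.93 and 6.14 with IL-4, against 7.69, 8.39 and 7.90 with IL-7. Its difference of -2.31 (adjusted p = 0.0201) lost its call without IL-4 replicate 2 (0.137), IL-7 replicate 1 (0.0609), IL-7 replicate 2 (0.0985) or IL-7 replicate 3 (0.0583).

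The rest of the 15 largest decreases were of varied function. Drc1, a component of ciliary dynein regulation, was at 5.81, 6.14 and 6.22 with IL-4, against 8.54, 9.23 and 8.86 with IL-7 and 4.89, 4.62 and 5.98 in media. All IL-7 arrays were above the background and all IL-4 and media arrays under it. The difference of -2.82 (SE 0.57, limma adjusted p = 0.00751) lost its call without IL-7 replicate 2 (adjusted p = 0.0555). The call was also lost without replicate 1 of both groups (0.163) or replicate 2 of both (0.118). Emp1, a small membrane protein, was at 5.34, 4.71 and 5.15 with IL-4, against 7.87, 7.82 and 7.54 with IL-7 and 6.57, 7.12 and 6.56 in media, with separate groups (difference -2.68, SE 0.19, limma adjusted p = 1.17e-06), though only 1 of its 2 probe sets went this way. Nrn1, a membrane-anchored neuritin, was at 6.53, 7.64 and 8.19 with IL-4, against 9.33, 10.44 and 10.48 with IL-7 (difference -2.63, SE 0.26). Armcx4 (-2.14) and Synpo (-2.09) completed the 15. For Synpo, too, 1 of 2 probe sets went this way.

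In several lists few or no genes passed the test, which called 5.18% of all genes, so that a short list without a call does not stand apart. None of the 29 DNA replication genes and none of the 27 mitosis genes was called by limma, and none was past an unadjusted p of 0.05. Over all 18194 genes tested, 1251 were higher and 1474 lower at that unadjusted threshold. The members of the lists had differences between -0.12 and 0.45 for replication and between -0.26 and 0.16 for mitosis. Of 30 ribosome biogenesis genes 0 were called (1 higher and 1 lower unadjusted), of 22 genes of glycolysis and glucose uptake 0 (1 higher and 1 lower unadjusted), and of 8 GIMAP genes 0 (0 higher and 1 lower unadjusted). Of 15 BCL2 family genes 0 were called (1 higher and 2 lower unadjusted). Bcl2, the survival factor, was at 12.24, 12.65 and 12.20 with IL-4, against 12.02, 12.42 and 12.14 with IL-7 and 10.13, 10.31 and 10.79 in media. The IL-4 and IL-7 arrays overlapped and both were above all media arrays (difference between IL-4 and IL-7 0.17, SE 0.25, limma adjusted p = 0.871). Cholesterol synthesis had 1 of 20 genes higher with a median of 0.24, fatty acid synthesis 1 of 15 lower, and the ATF4 and amino acid list 2 of 25 higher with a median of 0.24. The calls behind these counts were lost when certain single arrays were left out, and the other members were not recounted there. Lss, the cholesterol gene, kept its call without IL-4 replicate 3 and lost it without each of the other 5 arrays (adjusted p of 0.0566 to 0.224). Elovl6, the fatty acid gene, lost its call without each of the 6 arrays (0.0608 to 0.194). Ddit3 and Atf4 both lost the call without IL-4 replicate 2 (0.136 and 0.155) or 3 (0.155 and 0.0675) and without IL-7 replicate 2 (0.159 and 0.125) or 3 (0.191 and 0.0904), and Ddit3 also without IL-4 replicate 1 (0.0552).

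Media and the other cytokines give the level from which each difference starts. Against media, 4686 genes (25.8%) were called with IL-4 and 2974 genes (16.3%) with IL-7 by limma, and these comparisons share the media arrays. Among the 15 genes with the largest increase, the IL-4 mean was above the media mean by 1.59 (Slc2a6) to 4.87 (Gzma). The IL-7 mean differed from media by -1.16 (Slc2a6) to 1.45 (Metrnl). For Gzma the IL-21 mean was also above media, by 5.24, while IL-2 gave 0.06 and IL-15 gave 0.33. Cysltr2 lay above media by 2.76 in the IL-4 group, 0.16 in the IL-7 group and 2.72 in the IL-21 group, so that IL-4 and IL-21 stood together in both genes. The Il24 mean differed from that of media by 2.24 (IL-4), -0.63 (IL-7) and 2.91 (IL-2). Among the 15 with the largest decrease, the Klf2 mean differed from that of media by -3.59 (IL-4), -0.88 (IL-7) and -3.41 (IL-2). The Lta mean differed by -0.83 (IL-4), 1.67 (IL-7) and 3.69 (IL-2). The differences of IL-2, IL-15 and IL-21 are given as values, with no test here.

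**Figure D5:**
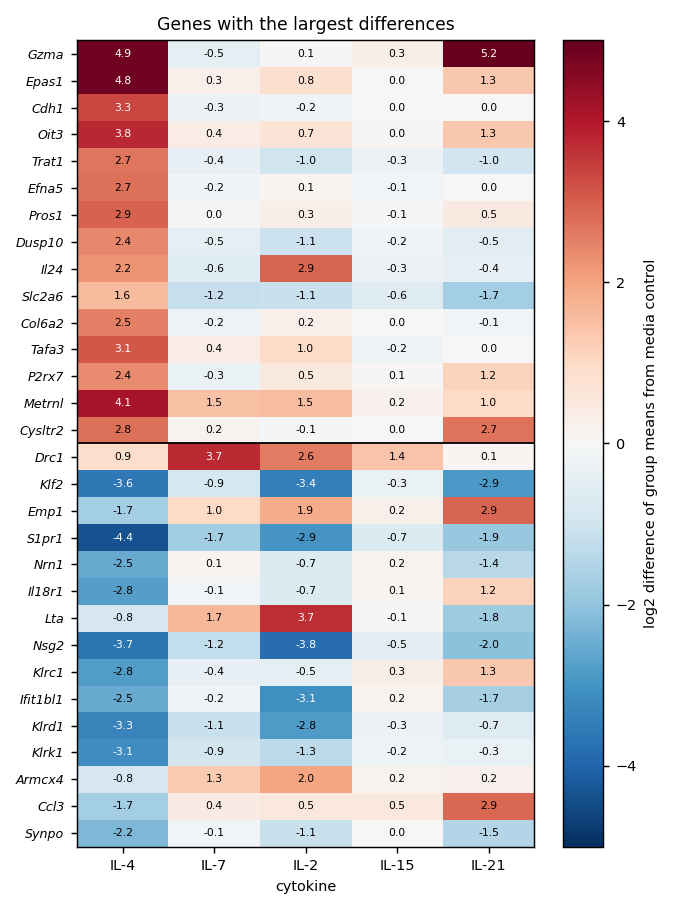
Difference of each cytokine's group mean from the media control mean (colour and number, log2) for the 30 genes of the plot of largest differences, increases above the line and decreases below it. Gzma stands at 4.9 with IL-4 and 5.2 with IL-21, against -0.5 with IL-7.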

How the data were processed

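Gene expression was measured on 18 Affymetrix Mouse 430 2.0 arrays, 3 for each of 6 groups. Per probe set, the authors deposited a log2 level, made with RMA in Affymetrix Expression Console, and this was the starting point. The deposited medians were 5.76 to 5.84 in 15 arrays and 4.47 to 4.52 in 3 arrays (replicate 3 of the IL-2, IL-15 and media control groups), so all 18 columns were quantile normalized (limma 3.58.1, R 4.3.3). Of 45101 probe sets, 9211 that the annotation did not list and 932 with several symbols were left out. For each of 18194 genes the probe set with the highest mean was taken from the 34958 with 1 symbol, of which 34754 matched RefSeq by Entrez ID. Genes at low levels were kept.

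Groups were compared with limma (lmFit over all 18 arrays, a mean per group, replicate number as a block, 10 residual degrees of freedom, eBayes, two-sided), with p adjusted by Benjamini-Hochberg over all genes at a threshold of 0.05. Once group means had been subtracted gene by gene, same-numbered arrays correlated across genes (45 pairs, lowest r 0.44, median 0.60), and the highest of 90 pairs with different numbers was 0.38, so the numbers pair the samples. For IL-4 and IL-7 the same-numbered pairs had r of 0.62, 0.66 and 0.67, and different numbers at most 0.03.

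Gene lists are described by counts and medians. Named genes are the 15 largest differences in each direction over the background level with the same sign in all 3 pairs, up to 4 called members per list, and genes of the IL-4 and IL-7 pathways. Genes of the lists and the groups compared were chosen with earlier results of these data known. Promoter windows are from RefSeq (GRCm38.p6). The method was tested on simulated data. With 3 arrays in a group, precision is limited by their number. Alternatives tried were the normalization, the block, the arrays in the fit, the probe set rule, a background filter, the eBayes settings and leaving out arrays or replicates. Python 3.11.15 (pandas 2.3.3, matplotlib 3.10.9) was used for tables and plots.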

Additional observations from a re-analysis of the deposited data

Results flagged for a closer look

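For 8 of the 111 named genes the 2 cytokines moved the level in opposite directions from media, each past the limma threshold, and the direct comparison of IL-4 with IL-7 tests that difference. The count also required this comparison to pass, as it did for 102 of the named genes. Such genes were not counted over all genes tested. Of the 8 genes, 5 lay above media with IL-4 and below it with IL-7. Dusp10 differed from media by 2.42 with IL-4 and by -0.47 with IL-7, a difference of 2.89 between the cytokines (limma adjusted p = 1.63e-08). Slc2a6 differed from media by 1.59 with IL-4 and by -1.16 with IL-7, a difference of 2.75 (adjusted p = 7.88e-07). Gata3 differed by 0.80 with IL-4 and by -0.62 with IL-7, a difference of 1.42 (adjusted p = 0.000201). Oas1a gave 0.81 with IL-4 and -0.52 with IL-7, a difference of 1.33 (adjusted p = 2.23e-05), and Cst7 gave 0.54 with IL-4 and -0.56 with IL-7, a difference of 1.09 (adjusted p = 3.62e-05).

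The other 3 lay below media with IL-4 and above it with IL-7. Emp1 differed from media by -1.68 with IL-4 and by 0.995 with IL-7, a difference of -2.68 between the cytokines (adjusted p = 1.17e-06). Lta gave -0.83 with IL-4 and 1.67 with IL-7, a difference of -2.49 (adjusted p = 8.37e-08), and Armcx4 gave -0.83 with IL-4 and 1.31 with IL-7, a difference of -2.14 (adjusted p = 1.95e-07). The differences from media share the media arrays, 1 of which was among the 3 arrays deposited on a lower scale.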

How the results depend on the processing

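Of the 102 named genes that passed, 72 passed without each single array and 46 also without each replicate number. Calls lost without replicate 1 or 2 of both groups included Cd8a (highest limma adjusted p = 0.166), Il21r (0.099), Stat5a (0.134) and Stat4 (0.17). Others were Socs1 (0.0608), Gzmc (0.124), Ccl3 (0.118), Entpd1 (0.134), Nt5e (0.0521), Crtam (0.171), Dgka (0.101), Txk (0.067) and Myc (0.21). Ikzf2 (0.0512), Itgb3 (0.0629), Ifngr1 (0.0753), Ltb (0.0712), Mx1 (0.0798) and Isg20 (0.074) lost theirs too. The direction of each of the 111 named genes, of which 91 were tested with the background filter, was kept under every alternative except for Il13ra1, whose difference was 0.026 with the values as deposited, 0.015 with columns centred on the median and -0.17 to 0.18 when arrays or replicate numbers were left out, above 0 without IL-4 replicate 1 (0.18), IL-7 replicate 3 (0.062) or replicate 1 (0.16). Without the replicate block 128 genes were higher and 115 lower, and all of these were among the 404 and 539. In that fit 51 of the named genes lost their call and 0 gained one. The losses included Gata3 (limma adjusted p = 0.297), P2rx7 (0.2365), Klrc1 (0.105) and Btla (0.0891). With the values as deposited, in which 3 arrays of other groups stand on a lower scale and enter the estimate of the spread, 48 were higher and 38 lower, and without those 3 arrays 673 were higher and 937 lower. The deposited values cost 58 named genes their call and gained 0, the losses including Gata3 (0.152), Oas1a (0.193) and Cst7 (0.547). Leaving out 1 array or 1 replicate number gave 120 to 478 higher and 99 to 766 lower. The other alternatives, which were median centring, the 6 IL-4 and IL-7 arrays alone, the mean of probe sets, a background filter and the eBayes settings, gave 355 to 435 higher and 484 to 625 lower. Levels under the background of 6.75 limit the sizes of differences for genes low in 1 group.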

Other observations

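Some genes, picked here after their values were seen, belong to shared pathways. They are outside the lists except for H2-DMb2, a listed B cell marker and the only 1 for which leaving out arrays was run. The first 5 act on sialic acids, of which the other enzymes were not counted. St6gal1, which adds α2,6-linked sialic acid to glycans, was at 9.17, 10.05 and 10.45 with IL-4, against 10.93, 11.61 and 11.23 with IL-7, without overlap (difference -1.37, SE 0.19, limma adjusted p = 0.000492). Cmah, which converts Neu5Ac to Neu5Gc in the mouse, was at 7.31, 7.33 and 7.55 with IL-4, against 8.81, 9.29 and 8.89 with IL-7, in 6 of 6 probe sets (difference -1.60, SE 0.19, limma adjusted p = 0.000104). St8sia4, a polysialyltransferase, had a difference of -1.18 and St8sia1 one of -1.32. St3gal1, which caps core 1 O-glycans, ran the other way at 8.31, 8.95 and 7.56 with IL-4, against 6.86, 7.35 and 6.60 with IL-7 (difference 1.34, SE 0.19), and 1 of its 2 probe sets had this direction. All 5 genes had separate groups, which largely follows from picking them after their values were seen. Over all genes, 6.94% had the 3 IL-4 arrays over the 3 IL-7 arrays and 6.71% had them under.

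Of the MHC class II chaperone H2-DM, the chain genes H2-DMa and H2-DMb2 were higher, and its other genes were not counted. H2-DMa was at 10.63, 11.03 and 10.70 with IL-4, against 9.60, 9.95 and 9.22 with IL-7 (difference 1.20, SE 0.14, limma adjusted p = 9.88e-05), and H2-DMb2 was at 8.85, 9.42 and 8.36 with IL-4, against 7.10, 7.58 and 6.85 with IL-7 (difference 1.70, SE 0.24, limma adjusted p = 0.000545). The H2-DMb2 difference was 1.57 to 1.81 with arrays left out, and its call was lost without replicate 1 of both groups (adjusted p = 0.0597). The array may not separate H2-DMb2 from genes of similar sequence. H2-DMb2 is also in the list of B cell markers, of which Cd79a and Pax5 were under the background. The part of B cells or dendritic cells was not tested. Of soluble guanylate cyclase, the receptor of nitric oxide, the chain genes Gucy1a1 and Gucy1b1 were lower, and its other genes were not counted. Gucy1a1 was at 6.68, 6.80 and 7.44 with IL-4, against 8.31, 8.31 and 9.59 with IL-7 (difference -1.76, SE 0.24), and Gucy1b1 was at 4.25, 4.01 and 4.83 with IL-4, against 6.26, 6.31 and 7.08 with IL-7, mostly under the background (difference -2.18, SE 0.20). Vim, which encodes vimentin, was at 11.19, 11.90 and 11.30 with IL-4, against 12.82, 13.24 and 12.77 with IL-7, with separate groups and 3 of 3 probe sets in this direction (difference -1.48, SE 0.15, limma adjusted p = 2.7e-05).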
